A study of Homo sapiens with 3 samples.

Results

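The 10 genes described here encode the nuclear subunits of cytochrome c oxidase that are used in most tissues: COX4I1, COX5A, COX5B, COX6A1, COX6B1, COX6C, COX7A2, COX7B, COX7C and COX8A. They were chosen by symbol from the 63241 gene rows of one ribosome profiling table, with COX7C set beside its partner subunits, and all 10 passed the filter on low counts. Ribosome profiling sequences the short mRNA fragments that translating ribosomes shield from nuclease, so the count of a gene reflects how many ribosomes sat on its mRNA. The cells were HEK293T, a line of human embryonic kidney origin in which the large T antigen of SV40, known to bind p53, is made. The 3 groups expressed a construct of wild-type p53 (WT), G245S p53 or R273H p53, the latter 2 being substitutions in the DNA-binding domain found in tumours. Each group had 3 dishes.

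The study's methods describe lentiviral lines kept under puromycin selection. The labels call the lines stable but the genotypes transient, and for both mutants the treatment entry names lipofection of a wild-type construct, a conflict that could not be settled from the labels. No group without a construct was analysed here, so each mutant was compared with WT-expressing cells and not with cells lacking the construct. All groups were treated briefly with cycloheximide, which halts elongating ribosomes, and footprints were made with micrococcal nuclease and taken from the monosome fraction. The dishes of a group were pooled at reverse transcription, so the p53 construct and the pool cannot be told apart. The study's methods call the dishes independent, each line being a single one, so the p-values measure the spread between dishes of a line.

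The libraries held 18758768 to 20010358 expected counts in WT, 18719212 to 21620818 in G245S and 23274140 to 24595383 in R273H. Every R273H library was thus deeper than every library of the other groups. MDM2, a transcriptional target of p53, read 815 to 913 CPM (counts scaled to a common library total) in WT, 73.3 to 81.5 in G245S and 73.4 to 79.0 in R273H, and CDKN1A, another target, read 59.0 to 63.5, 15.8 to 16.5 and 13.5 to 14.4. The HEK293 markers VIM, NEFM, NEFL and PAX2 were present in every library, as were the epithelial keratins KRT18 and KRT8, while KRT19 reached at most 0.0508 CPM. PAX2 (5.01 to 8.24 CPM) and the epithelial markers CDH1 (5.24 to 8.58) and EPCAM (3.28 to 5.35) were low. Of 8 markers of muscle, blood, liver and endothelial cells, 6 stayed below 1 CPM in every library. The exceptions were the muscle genes ACTN2 (2.43 to 4.23 CPM) and CKM (0.285 to 1.37).

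Cytochrome c oxidase, complex IV of the respiratory chain, passes electrons from cytochrome c to oxygen and pumps protons across the inner mitochondrial membrane. Its catalytic core, MT-CO1, MT-CO2 and MT-CO3, is encoded by mitochondrial DNA and made inside the organelle, whereas the subunits described here are made on cytosolic ribosomes, imported and added around the core. Assembly is stepwise. COX4I1 and COX5A join MT-CO1 first, COX5B, COX6C, COX7B, COX7C and COX8A come with the MT-CO2 step, and COX6A1, COX6B1 and COX7A2 with the MT-CO3 step. This grouping was applied after the values had been seen and orders the text only.

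The bases around the start codon of 8 subunits are given first, from the GENCODE v44 canonical transcripts on GRCh38, because that is where a ribosome settles before making each protein. Each run holds 10 bases before the coding region and the first 20 of it, with the start codon in capitals.
COX4I1: tggcggcagaATGttggctaccagggtatt
COX5B: cgcggacgcaATGgcttcaaggttacttcg
COX7B: caccttcacgATGtttcccttggtcaaaag
COX7C: cagcagcggtATGttgggccagagcatccg
COX8A: ccgtgccatcATGtccgtcctgacgccgct
COX6A1: cagatcaaaaATGgcggtagttggtgtgtc
COX6B1: attcagcaccATGgcggaagacatggagac
COX7A2: aacagccaagATGctgcggaatctgctggc
A purine stood at the third base before the start codon in all 10 subunits, as in 86.0% of 19248 protein-coding genes. A G directly followed the start codon in 40.0% of the subunits and in 51.3% of those genes. Both features, the core of the sequence favoured by scanning ribosomes, came together in COX5B, COX6C, COX6A1 and COX6B1, which is 40.0% of the subunits beside 43.5% of all these genes.

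COX7C is shown in full because most of its coding region also exists elsewhere in the genome, so that a short footprint often cannot be placed. Of its 163 windows of 30 bases, 108 (66.3%) recur exactly in a transcript of another gene, 97 in COX7CP1 at chr13:49187479-49187670 (minus) and 69 in COX7CP2 at chr1:202767229-202767418 (minus). Both are processed pseudogenes, that is, copies of a spliced mRNA set back into the genome. Capitals mark the bases at which a copy differs from COX7C.
COX7C: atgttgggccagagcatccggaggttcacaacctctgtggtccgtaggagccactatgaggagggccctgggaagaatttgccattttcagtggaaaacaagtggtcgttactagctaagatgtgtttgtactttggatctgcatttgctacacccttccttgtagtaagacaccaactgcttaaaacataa
COX7CP1: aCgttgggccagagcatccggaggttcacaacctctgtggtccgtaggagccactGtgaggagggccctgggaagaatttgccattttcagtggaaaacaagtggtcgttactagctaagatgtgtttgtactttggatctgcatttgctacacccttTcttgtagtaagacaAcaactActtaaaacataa
COX7CP2: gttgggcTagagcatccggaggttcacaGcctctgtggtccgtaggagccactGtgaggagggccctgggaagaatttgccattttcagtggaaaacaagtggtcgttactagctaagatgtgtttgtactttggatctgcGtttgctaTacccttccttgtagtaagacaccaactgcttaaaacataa
Each copy differs from COX7C at 5 bases, and COX7CP2 lacks a further 2. The share of 30-base windows found elsewhere was 90.0% in COX6A1, 47.5% in COX8A, 20.1% in COX7B and 18.2% in COX5A, and it was 0 in COX5B and COX6B1. Rows named as pseudogenes held 12.2% of the counts of COX6A1 and its copies together and 8.63% of those of COX7C, and at most 2.25% for any other subunit. COX6A1 and COX8A each also share sequence with a readthrough gene on the same strand, ENSG00000111780 and ENSG00000256100. Values of COX6A1, COX7C and COX8A therefore depend on how shared footprints were divided, and they were also computed with the sharing rows added. COX8A has 0 rows named as pseudogenes, so adding pseudogene counts leaves its own counts as they were. Its values with the readthrough row added are not given here.

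The subunit genes are scattered over 10 chromosomes (GRCh38, GENCODE v44). COX4I1 lies at chr16:85798633-85807068 on the plus strand and COX5A at chr15:74919791-74938083 on the minus strand. COX5B occupies chr2:97646062-97648383 (plus), COX6C chr8:99873200-99893707 (minus) and COX7B chrX:77899440-77907376 (plus). COX7C is at chr5:86617928-86620962 (plus), COX8A at chr11:63974620-63976543 (plus) and COX6A1 at chr12:120438090-120440737 (plus). COX6B1 is at chr19:35648323-35658782 (plus) and COX7A2 at chr6:75237675-75250323 (minus). All are short genes for short proteins: their coding regions, stop codon included, run from 192 nt in COX7C to 510 nt in COX4I1, over 2 exons in COX8A and 5 in COX4I1 and COX5A. Coding GC content runs from 44.03% in COX7B to 65.2% in COX8A. COX4I1 overlaps EMC8 and COX6C overlaps VPS13B on the other strand, and whether strand was used in counting is not given, so reads of the overlaps may have been assigned to either gene.

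All 10 subunits were among the most densely occupied genes. In WT cells, CPM per kilobase of coding region placed them at percentiles 98.2 to 99.9 of 13615 protein-coding genes. COX7C, a subunit with a single membrane span, had the highest density, 2665 ± 42.5 CPM per kilobase (SD, n = 3 dishes). COX7B, another single-span subunit, followed with 1725 ± 81.4, and COX7A2, the COX7A isoform of most tissues, with 1381 ± 52.2. The ranges over dishes of these 3 subunits and of their neighbours in the order did not overlap.

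The middle of the order was COX6B1 with 1197 ± 5.66 CPM per kilobase, COX6C with 1176 ± 38.1, COX4I1 with 1046 ± 19.7 and COX6A1 with 925 ± 2.88. The ranges of COX6B1 and COX6C overlapped. COX8A (860 ± 8.47) and COX5A (854 ± 4.55) overlapped as well, and COX5B, the subunit that binds zinc, came last with 767 ± 25.7. Subunits that stand in equal number in the enzyme thus differed 3.48-fold in footprint density in WT cells, 3.49-fold in G245S and 3.59-fold in R273H. With pseudogene counts added, COX7C stayed first and COX5B last, while COX4I1 and COX6A1 exchanged places, as did COX5A and COX8A. Densities from short coding regions also carry the pile-up of ribosomes at start and stop codons, which the gene counts do not resolve.

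**Figure D1:**
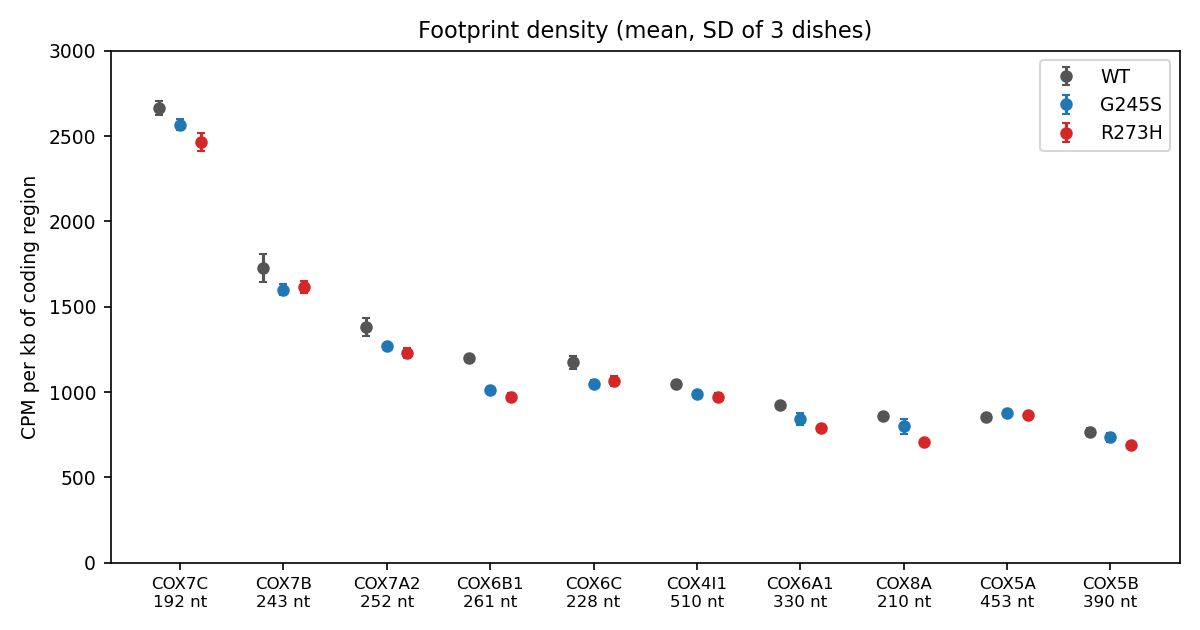
Footprint density of the 10 subunits in CPM per kilobase of coding region (linear axis from 0), with a point at the mean of each group of 3 dishes (WT, G245S and R273H) and bars of 1 SD; coding lengths stand under the names. COX7C lies at 2468 to 2665, above every other subunit, and COX5B is lowest in each group.

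The 10 subunits together took 0.356% ± 0.00665 of the scaled library total behind CPM in WT, 0.334% ± 0.00398 in G245S and 0.324% ± 0.00387 in R273H (SD, n = 3 dishes). The ranges of the 3 groups did not overlap. The counts are shares of a library with no spike-in, and footprint numbers follow both the amount of an mRNA and its translation, which cannot be told apart in this table.

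The question put to each subunit was whether its footprints differed between cells expressing mutant and WT p53. Calls were made at 0.05 on p-values of the edgeR quasi-likelihood test, adjusted by Benjamini-Hochberg over 19820 genes. In G245S cells 7 subunits fell and 0 rose, where 24.7% of all genes were called, 12.1% lower and 12.6% higher. In R273H cells 9 subunits fell and 0 rose, where 28.8% of all genes were called, 14.6% lower and 14.2% higher. The counts of rising subunits were also 0 at an unadjusted p under 0.05, where 18.1% of all genes rose in G245S and 19.1% in R273H, and 0 with DESeq2, where 9.55% and 10.4% did.

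The changes were small. The median log2 fold change of the subunits was -0.11 in G245S and -0.15 in R273H, where the medians of all genes tested were -0.00069 and -0.0024. The dishes of G245S lay all below those of WT for 8 subunits and all above for 1, beside 18.8% and 18.6% of all genes. For R273H, 9 subunits lay all below and 1 all above, beside 20.9% and 20.3%. The 7 subunits called in G245S were called in R273H too, but the share of all genes called in both mutants was not computed. Both comparisons use the same WT dishes and are not independent of each other.

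**Figure D2:**
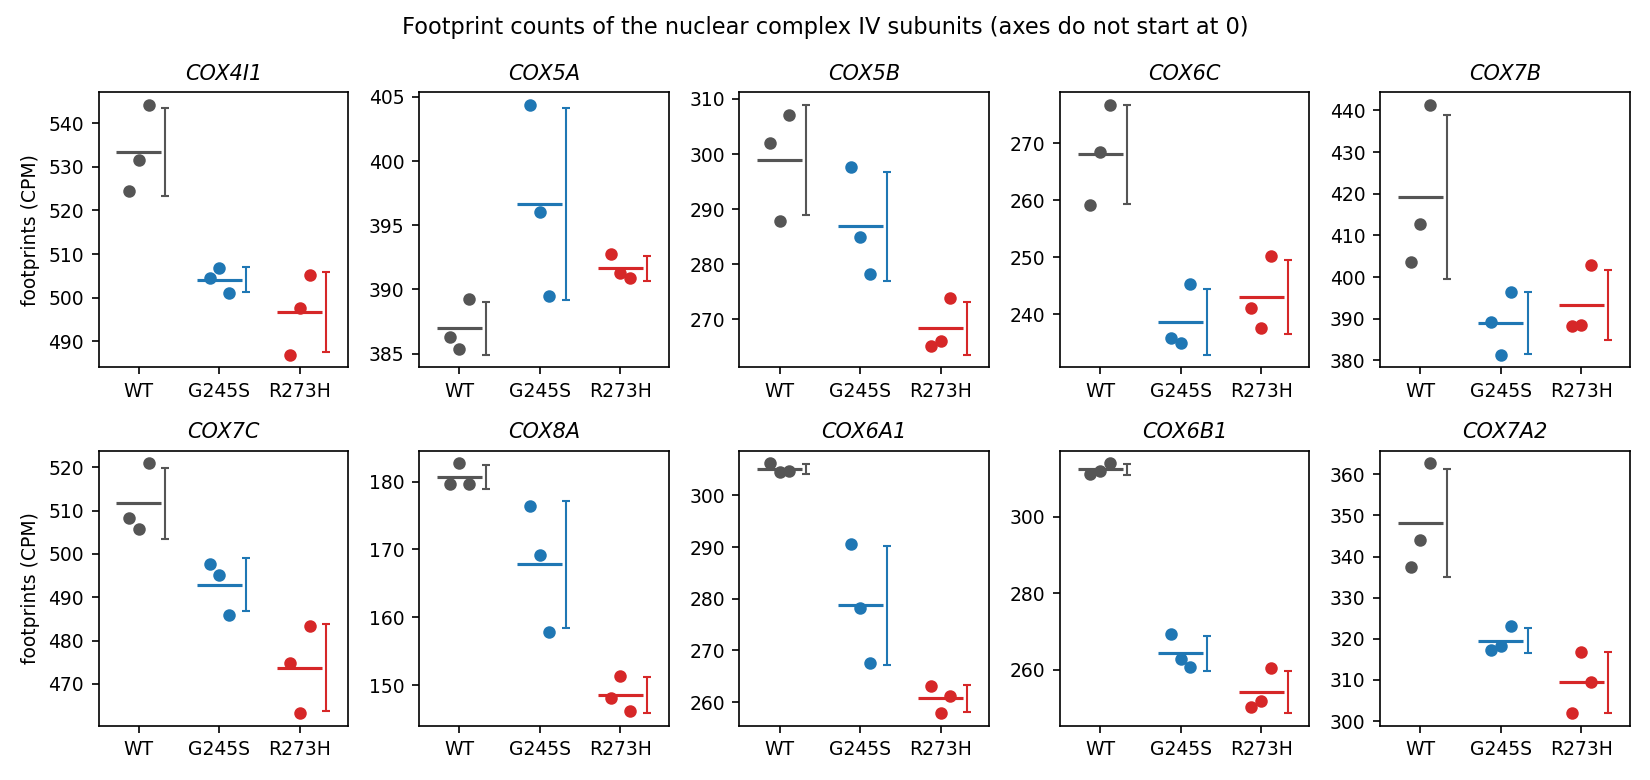
Footprint level of each subunit in CPM (linear axes that do not start at 0), with a point for each of the 3 dishes of WT, G245S and R273H, a line at the mean and a bar of 1 SD either way. For COX6B1 the mutant dishes at 250 to 269 CPM lie clear of the WT dishes at 311 to 314, and for COX5A the mutant dishes lie just above the WT dishes.

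The subunits that join MT-CO1 first went different ways. COX4I1, the regulatory subunit that binds ATP, read 524, 532 and 544 CPM in WT, 505, 507 and 501 in G245S and 487, 498 and 505 in R273H. Every mutant dish was below every WT dish. COX4I1 fell by 0.081 on the log2 scale in G245S (SE 0.0236, edgeR adjusted p = 0.0116) and by 0.10 in R273H (SE 0.0235, edgeR adjusted p = 0.00129). The G245S call was lost without WT dish 3 (adjusted p = 0.0592).

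COX5A, which sits on the matrix side of the enzyme, read 386, 385 and 389 CPM in WT, 404, 396 and 389 in G245S and 393, 391 and 391 in R273H. It was the one subunit whose mutant dishes were all above the WT dishes, although the gap was under 1 CPM at its narrowest in G245S. Neither difference passed the test: the log2 fold change was 0.035 in G245S (95% interval -0.013 to 0.084, edgeR adjusted p = 0.305) and 0.017 in R273H (-0.031 to 0.066, edgeR adjusted p = 0.635). Against the mean log2 level of the other 9 subunits COX5A stood at 0.20 ± 0.0198 in WT, 0.36 ± 0.00777 in G245S and 0.40 ± 0.0203 in R273H (SD, n = 3), with no overlap between WT and either mutant.

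Among the subunits of the MT-CO2 step, COX7C read 508, 506 and 521 CPM in WT, 498, 495 and 486 in G245S and 475, 463 and 483 in R273H. The WT dishes were highest and the R273H dishes lowest, with no overlap between any pair of groups. COX7C fell by 0.11 on the log2 scale in R273H (SE 0.0239, edgeR adjusted p = 0.00073). In G245S its log2 fold change of -0.054 did not pass (95% interval -0.10 to -0.0046, edgeR adjusted p = 0.104).

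Relative to its partners COX7C moved the other way. Its log2 level minus the mean of the other 9 subunits was 0.65 ± 0.00791 in WT, 0.71 ± 0.0118 in G245S and 0.70 ± 0.0253 in R273H (SD, n = 3). The WT dishes spanned 0.644 to 0.659 and the mutant dishes 0.672 to 0.719, so WT lay below both mutants while the mutants overlapped. With the counts of its pseudogenes added, the ratio was 0.75, 0.81 and 0.80, and the WT dishes were again below all mutant dishes. No test was made of this ratio. A rise against the other subunits was not particular to COX7C. In R273H the log2 fold changes of COX4I1 (-0.103) and COX7B (-0.092) were less negative than that of COX7C (-0.111). In G245S that of COX5B (-0.060) was close to that of COX7C (-0.054), and COX5A did not fall in either mutant.

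COX8A, the shortest subunit but for COX7C, read 180, 183 and 180 CPM in WT, 176, 169 and 158 in G245S and 148, 151 and 146 in R273H. The 3 groups did not overlap. COX8A fell by 0.28 in R273H (SE 0.0328, edgeR adjusted p = 1.49e-07) and by 0.11 in G245S (SE 0.0331, edgeR adjusted p = 0.0163) on the log2 scale. The G245S call was lost without WT dish 2 (adjusted p = 0.0709) or without G245S dish 3, where the log2 fold change was -0.061 (adjusted p = 0.179).

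COX6C, a single-span subunit, read 259, 268 and 277 CPM in WT, 235.8, 235.0 and 245.4 in G245S and 241, 238 and 250 in R273H, with both mutants below WT. It fell by 0.17 in G245S (SE 0.0293, edgeR adjusted p = 8.56e-05) and by 0.14 in R273H (SE 0.0289, edgeR adjusted p = 0.000416). COX6C and COX7B were the only subunits whose estimate was lower in G245S than in R273H, without passing a test of that difference.

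COX5B read 302, 288 and 307 CPM in WT, 298, 285 and 278 in G245S and 265, 266 and 274 in R273H. Its G245S dishes overlapped WT, and its R273H dishes did not. It fell by 0.16 in R273H (SE 0.0289, edgeR adjusted p = 0.000142), and its G245S log2 fold change of -0.060 did not pass (95% interval -0.12 to -0.00052, edgeR adjusted p = 0.136). That value was -0.037 without WT dish 3 and -0.034 without G245S dish 3.

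COX7B read 403, 413 and 441 CPM in WT, 389, 381 and 396 in G245S and 388, 388 and 403 in R273H. Its WT dishes were spread more widely than its mutant dishes, and the gap between the lowest WT dish and the highest R273H dish was under 1 CPM. COX7B fell by 0.11 in G245S (edgeR adjusted p = 0.00689) and by 0.092 in R273H (edgeR adjusted p = 0.0158). Neither call held without WT dish 3, where the log2 fold changes were -0.065 (adjusted p = 0.0762) and -0.051 (adjusted p = 0.152). The G245S call was also lost without G245S dish 2 (adjusted p = 0.0636), and the R273H call without R273H dish 1 (adjusted p = 0.0772) or R273H dish 2 (adjusted p = 0.0730).

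The subunits of the MT-CO3 step all fell in both mutants. COX6B1, which faces the intermembrane space and holds the monomers of the enzyme's dimer together, read 311, 312 and 314 CPM in WT, 269, 263 and 261 in G245S and 250, 252 and 260 in R273H. The gap between WT and mutant dishes was several times the range within a group. COX6B1 had the lowest estimate of the 10 in both mutants: it fell by 0.24 on the log2 scale in G245S (SE 0.0259, edgeR adjusted p = 3.33e-08), a change of -15.4% (95% interval -18.5 to -12.2), and by 0.30 in R273H (SE 0.0256, edgeR adjusted p = 4.48e-10), a change of -18.6% (-21.6 to -15.6).

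COX6A1, the COX6A isoform of most tissues, read 306, 305 and 305 CPM in WT, 291, 278 and 268 in G245S and 263, 258 and 261 in R273H. The groups did not overlap, and the G245S dishes were spread more widely than the others. It fell by 0.13 in G245S (edgeR adjusted p = 0.000717) and by 0.23 in R273H (edgeR adjusted p = 2.72e-07), and with all rows that share its sequence added the log2 fold changes were -0.15 and -0.23.

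COX7A2 read 337, 344 and 363 CPM in WT, 317, 318 and 323 in G245S and 302, 317 and 309 in R273H. The WT dishes were highest and the R273H dishes lowest, and the groups did not overlap, although the highest R273H dish came within 1 CPM of the lowest G245S dish. COX7A2 fell by 0.12 in G245S (edgeR adjusted p = 0.00142) and by 0.17 in R273H (edgeR adjusted p = 2.4e-05). When the test asked for a change of more than 1.2-fold, 0 of the 10 subunits were called in either mutant, beside 2.76% of all genes in G245S and 3.50% in R273H. Unadjusted, at p under 0.05, that test gave 0 subunits in G245S and 1, COX6B1, in R273H, beside 9.52% and 10.9% of all genes.

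**Figure D3:**
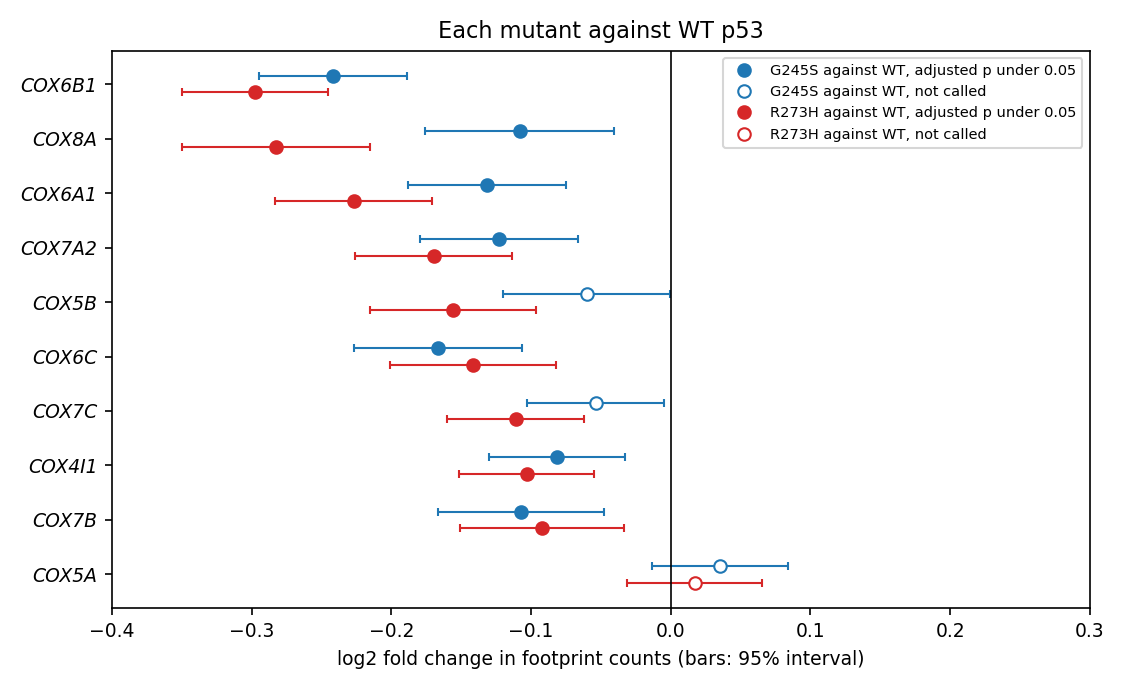
Log2 fold change of each subunit with its 95% interval from edgeR, for G245S against WT and R273H against WT, with filled symbols for calls at an adjusted p under 0.05. COX5A is above 0 and not called, and COX6B1 is lowest, at -0.24 and -0.30.

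The mutants were also compared with each other. Of the 10 subunits 1, COX8A, was higher in G245S than in R273H and 0 were lower, where 2.59% of all genes were called, 1.86% higher and 0.732% lower. At an unadjusted p under 0.05 the counts were 5 and 0, beside 8.93% and 6.81% of all genes, and with DESeq2 2 and 0, beside 1.58% and 0.404%. The log2 difference of COX8A was 0.17 (SE 0.0330, edgeR adjusted p = 0.00278), and it was lost without G245S dish 1 (0.14, adjusted p = 0.0529). COX6A1 and COX5B, each with a log2 difference of 0.096, did not pass (edgeR adjusted p = 0.0603 and 0.0776). Both passed without WT dish 3 (adjusted p = 0.0373 and 0.0387) or without G245S dish 3 (0.00969 and 0.0282). A WT dish enters this comparison only through the shared estimate of the spread, the scaling and the filter. For COX7C the difference was 0.057 (95% interval 0.0082 to 0.11, edgeR adjusted p = 0.225). The G245S dishes lay all above the R273H dishes for 6 subunits and all below for 0, beside 11.6% and 9.86% of all genes.

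Dish 3 had the lowest correlation of its counts with GC content in each group, and COX8A is the most GC-rich subunit. Across 10886 genes, Spearman's rho between GC content and the deviation of a library from the mean library was 0.26, 0.12 and -0.18 in the WT dishes, 0.34, 0.30 and -0.18 in the G245S dishes and -0.18, -0.14 and -0.42 in the R273H dishes. G245S dish 3 had the lowest COX8A level of its group. With a trend on coding length removed from each library, the COX8A difference between the mutants was 0.15 (edgeR adjusted p = 0.00758), and with trends on both coding length and GC content removed it was 0.085 (edgeR adjusted p = 0.0572). Without dish 3 of each group, 5 subunits were higher in G245S than in R273H, beside 3.63% of all genes.

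The subunits have some of the shortest coding regions of the cell, and coding length itself moved with the groups. Spearman's rho between coding length and the deviation of a library was -0.18 to -0.14 in the WT dishes, -0.011 to 0.12 in G245S and 0.14 to 0.19 in R273H. The 684 protein-coding genes of the shortest of 20 length bins, with a median coding length of 297 nt, had median log2 fold changes of -0.10 in G245S and -0.12 in R273H. Each subunit was therefore set beside the 200 genes nearest to it in coding length.

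In G245S, 8 subunits lay below the median of those neighbours and COX5A and COX7C above. In R273H, 7 lay below and COX5A, COX7B and COX7C above. The median over the subunits of the difference from the neighbours was -0.024 in G245S and -0.072 in R273H. COX6B1 stood farthest below, by -0.14 and -0.21 on the log2 scale. COX7C stood 0.062 and 0.039 above, with neighbours at -0.12 and -0.15. COX8A differed from its neighbours by -0.0029 in G245S and -0.15 in R273H. These positions lay within the spread of the neighbours. In G245S and R273H, COX6B1 stood at percentiles 21.5 and 15.5 of its 200 neighbours, COX8A at 48.5 and 17.5, and COX7C at 65.5 and 59.5.

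**Figure D4:**
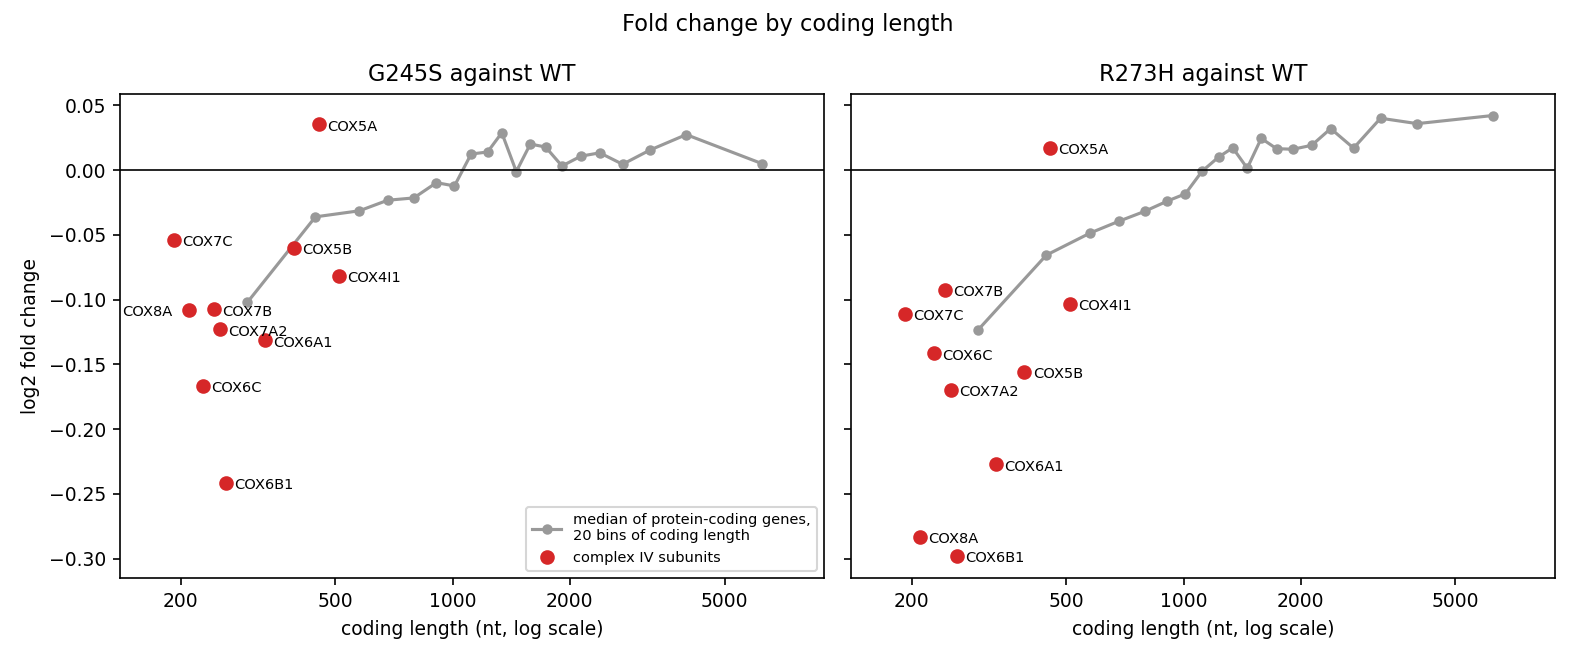
Log2 fold change against coding length (log axis, nt) for G245S and R273H, with the medians of protein-coding genes in 20 length bins as a line and the 10 subunits as labelled points. The line falls to -0.10 and -0.12 at the shortest genes; COX6B1 lies below it and COX5A above it in both panels.

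With a trend on coding length removed from every library before the test, COX6B1 alone was called lower in G245S, with a log2 fold change of -0.15 (edgeR adjusted p = 5.02e-05), and COX5A was called higher, at 0.085 (edgeR adjusted p = 0.00849). In R273H, COX6B1 (-0.19, edgeR adjusted p = 1.59e-06), COX8A (-0.15), COX6A1 (-0.13) and COX5B (-0.076) were called lower and COX5A higher (0.086, edgeR adjusted p = 0.00633). The shares of all genes then called were 11.7% lower with 12.5% higher for G245S and 13.6% lower with 14.1% higher for R273H, so in G245S the shares of subunits were near those of all genes. The estimate of COX7C turned positive, 0.062 in G245S and 0.025 in R273H (edgeR adjusted p = 0.0531 and 0.460). The falls of COX4I1, COX6C, COX7A2 and COX7B were not called after this step in either mutant. What the length trend reflects was not tested, and a change common to short mRNAs is removed by this step together with any technical trend.

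Of 11 other complex IV genes, 5 passed the filter. The isoforms of particular tissues were nearly absent: COX6A2 and COX7A1, of heart and skeletal muscle, were at 0 CPM in every library, and COX4I2, COX6B2, COX7B2 and COX8C reached at most 0.759 CPM. Nearly all footprints of the families with several isoforms thus came from the ubiquitous subunits.

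The mitochondrial core subunits were measured too, although cytosolic profiling is not built for mitochondrial ribosomes. MT-CO1, which holds the oxygen-reducing site, had means of 669 CPM in WT, 642 in G245S and 596 in R273H. It fell by 0.17 on the log2 scale in R273H (edgeR adjusted p = 2.18e-06), as did MT-CO2, which receives electrons from cytochrome c, by 0.18 and MT-CO3 by 0.098. In G245S their log2 fold changes of -0.059, -0.079 and 0.0072 did not pass. MT-CO1 and MT-CO3 were higher in G245S than in R273H, each by 0.11.

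NDUFA4, a subunit at the edge of complex IV, fell by 0.11 in G245S and 0.13 in R273H, and COX7A2L, which ties complex IV to complex III, fell by 0.10 in both. The list of other complex IV genes thus held 2 lower of 5 tested in G245S and 5 of 5 in R273H, beside 12.1% and 14.6% of all genes.

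Of the 29 assembly factors of complex IV, 4 rose and 8 fell in G245S, with a median of -0.044. In R273H 5 rose and 7 fell, with a median of -0.048. Of all genes, 12.6% rose and 12.1% fell in G245S, and 14.2% rose and 14.6% fell in R273H. The share of rising factors was near that of all genes. LRPPRC, which stabilises mitochondrial mRNAs, rose by 0.33 and 0.38. SCO2, a copper-handling factor and known p53 target, rose by 0.18 in G245S (edgeR adjusted p = 0.0017), while its R273H log2 fold change of 0.065 did not pass (edgeR adjusted p = 0.241).

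Among the assembly factors that fell, COX17, the copper chaperone, fell by 0.26 and COA5 by 0.23 in G245S. COA3, which acts on newly made MT-CO1, fell by 0.28 and PET100 by 0.26 in R273H, where FASTKD1, an RNA-binding protein of mitochondria, rose by 0.28. Each of these factors was also called in the same direction in the other mutant. The log2 fold changes were -0.16 for COX17 and -0.23 for COA5 in R273H. In G245S they were -0.22 for COA3, -0.20 for PET100 and 0.17 for FASTKD1. HIGD2A, which helps to add the MT-CO3 module, was the one assembly factor called between the mutants, 0.12 higher in G245S. Of all genes, 2.59% were called there.

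The nuclear subunits of the other complexes of the chain were set beside those of complex IV. Of all genes tested, 12.6% rose and 12.1% fell in G245S, and 14.2% rose and 14.6% fell in R273H. For complex I, 3 of 37 subunits rose and 16 fell in G245S, and 5 rose and 21 fell in R273H, with median log2 fold changes of -0.062 and -0.12. For complex III, 3 of 9 rose and 3 fell in G245S, and 2 rose and 5 fell in R273H, with medians of -0.055 and -0.086. For complex V, the ATP synthase, 2 of 18 rose and 5 fell in G245S, and 8 fell in R273H, with medians of -0.035 and -0.039. The complex IV subunits had the lowest median of these 4 lists in both mutants and also the shortest coding regions, with a median of 256.5 nt against 336 to 438 nt. Whether the lists differ was not tested.

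**Figure D5:**
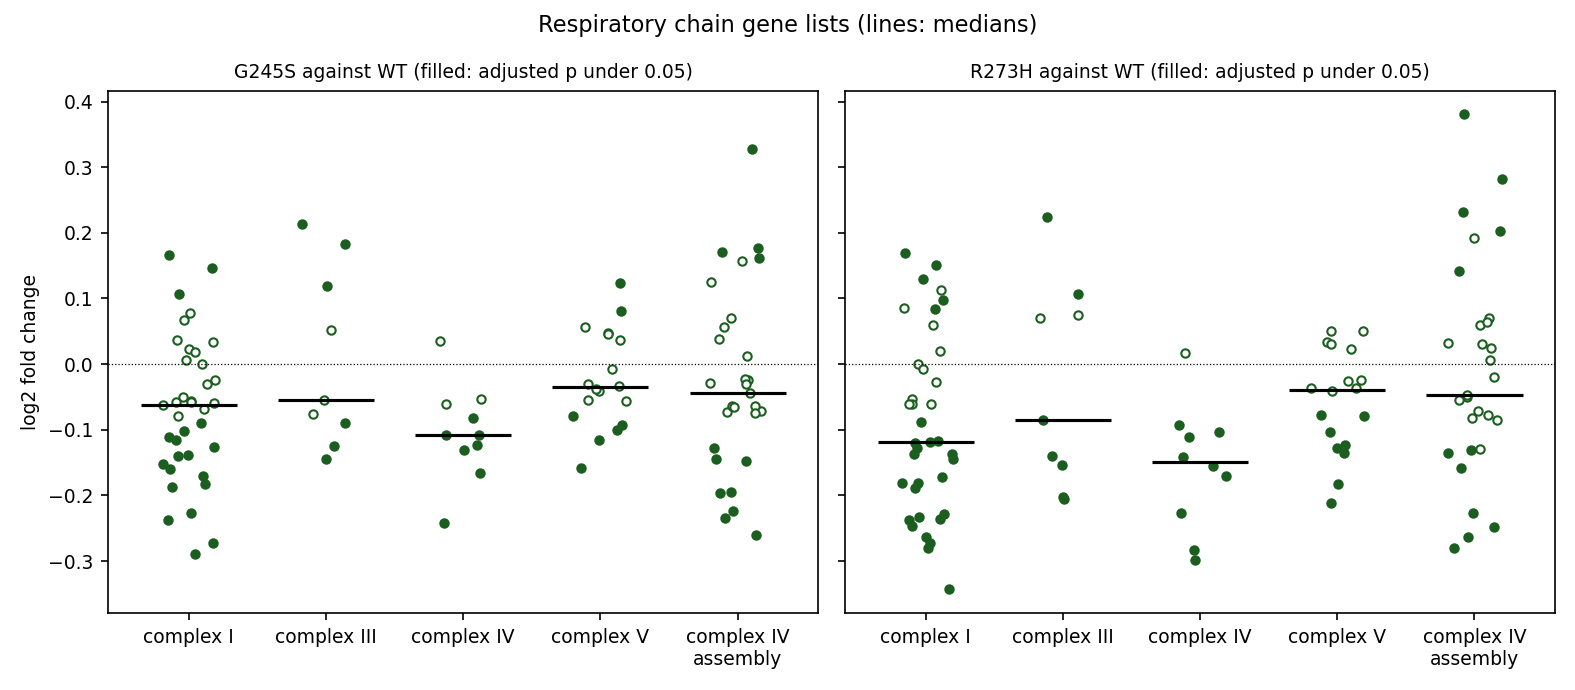
Log2 fold changes of the nuclear subunits of complexes I, III, IV and V and of the complex IV assembly factors in G245S and R273H against WT, with a point for each gene, filled where called, and a line at the median of each list. The medians of complex IV lie lowest, at -0.11 and -0.15.

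The genes whose pattern over the 9 libraries was most like the mean of the 10 subunits, among 12642 genes, were RBFOX2 (Pearson's r = 0.987), SFPQ (0.982), MRPL51 (0.979), SNRPC (0.976) and NUCKS1 (0.976). RBFOX2, SFPQ and SNRPC encode RNA-binding or splicing proteins, MRPL51 a protein of the mitochondrial ribosome and NUCKS1 a chromatin protein. The 9 libraries fall into 3 groups and share their depth and length trends, so the values describe a pattern only. Within the set, COX7C (r = 0.960), COX4I1 (0.956), COX6B1 (0.951) and COX6A1 (0.950) followed the mean of the subunits about equally closely. Each subunit is itself in that mean. COX5A did not follow it (r = -0.26).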

How the data were processed

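Ribosome footprints were measured in 9 dishes of HEK293T cells, 3 each with WT, G245S or R273H p53, and grouped by the labels. The deposited table holds expected counts per gene as the authors estimated them, mostly not whole and not scaled for depth or length. Per the labels and the study's methods, reads were trimmed with Trim Galore (cutadapt), passed through UMI-tools where applicable, filtered for ribosomal RNA and aligned to GRCh38 with STAR. The counting tool, its annotation release, strand use and footprint length filter are not given in the sources used here. No authors' comparison was used.

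Counts were rounded and fitted in edgeR 4.0.16 (R 4.3.3) with TMM scaling, filterByExpr and a robust quasi-likelihood fit of all 9 libraries, with Benjamini-Hochberg adjustment over 19820 genes and a threshold of 0.05. The study names a Wald test for these data, which was run with DESeq2 1.42.0 as an alternative. CPM use TMM-scaled totals of the genes that passed the filter. The totals of all rows ran from 18719212 to 24595383 before scaling, and the biological coefficient of variation was 2.58%. Of 63241 rows, 62666 matched GENCODE v44, whose canonical transcripts gave coding lengths, in place of the protein lengths first planned. Counting error was 0.912 to 1.73% of a subunit's level per dish, and in 8 of 30 combinations of subunit and group the SD between dishes was below it. The script was tested on simulated data.

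All 10 subunits and all other complex IV genes are named. Assembly factors are named as SCO2 and the 2 of largest change in each direction, and similar genes as the 5 of highest r among genes whose counts averaged 100 or more. The members and lists were chosen with earlier results of these data known. Alternatives covered scaling, filtering, tool, libraries, dish number, length and GC trends, shared sequences and single dishes. The start codon sequences of COX5A and COX6C are not reported here.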

Additional observations from a re-analysis of the deposited data

Results flagged for a closer look

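COX8A was singled out because its change against WT differed between the mutants by a test of the difference itself: the log2 difference of G245S against R273H was 0.17 (edgeR adjusted p = 0.00278), with all 3 G245S dishes above all 3 R273H dishes. The difference was called in 8 of 9 repeats that left out a single dish, the exception being the repeat without G245S dish 1 (0.14, adjusted p = 0.0529). The repeats that left out a WT dish kept all dishes of both mutants. With the coding length trend removed from each library it was 0.15 (adjusted p = 0.00758), and with trends on coding length and GC content removed, an alternative chosen after seeing the data, 0.085 (adjusted p = 0.0572).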

How the results depend on the processing

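RLE scaling gave 7 and 9 subunits lower in G245S and R273H, beside 2401 and 2850 of 19820 genes. Upper-quartile scaling gave 7 and 8, beside 2182 and 2601 genes. The larger shifts came from the length trend. In G245S it left 1 subunit lower and 1 higher with a median of -0.0196. With GC content as a further term (chosen after seeing the data) 3 were lower and 2 higher, at -0.0200. Of 19820 genes, 2319 and 2581 were lower and 2475 and 2825 higher under these 2 settings. In R273H both settings left 4 subunits lower and 1 higher, at -0.0493 and -0.0424. Of all genes, 2690 and 2888 were then lower and 2786 and 3061 higher. Several signs turned. With length alone these were COX5B (0.0002) and COX7C (0.0616) in G245S, COX7B (0.0249) and COX7C (0.0251) in R273H, and COX5A (-0.0011) between the mutants. With GC content added they were COX7C in G245S (0.0656, adjusted p = 0.00893) and, between the mutants, COX5A (-0.0017) and COX7B (0.0106). Without single dishes COX7B between the mutants ran from -0.0269 to 0.0034, the latter without R273H dish 3.

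Against a 1.2-fold minimum, 0 subunits passed in any comparison, and genes called higher and lower were 192 and 355 in G245S, 268 and 425 in R273H, and 1 and 2 between the mutants. Leaving out single dishes gave 5 to 7 subunits lower in G245S, with medians of -0.1207 to -0.0765, and 8 to 9 in R273H. Of all genes, 1899 to 2338 were lower in G245S and 2301 to 2941 in R273H in these repeats. Without dish 3 of each group (chosen after seeing the data) the G245S median was -0.0711.

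Between the mutants, where 1 subunit was called higher, DESeq2, the fit of 6 libraries and added pseudogene counts each gave 2, single dishes left out 0 to 3, and leaving out dish 3 of each group 5. Genes called higher there were 314 with DESeq2, 433 with 6 libraries and 369 with pseudogene counts added. In the main fit, genes called higher and lower were 368 and 145. They became 721 and 305 without dish 3 of each group, and 118 to 487 and 44 to 225 without single dishes. Without the low-count filter 293 were lower, and with DESeq2 80. The COX7C ratio with pseudogenes added was 0.7510 in WT, 0.8072 in G245S and 0.7968 in R273H. Causes were not tested.

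Dish numbers shared across groups gave correlations of 0.042 to 0.23, not all above 0.1. Pairs of different number gave -0.18 to 0.058. The main fit did not take the numbers as pairs, so it leaves out any effect shared by dishes of a number. What such an effect reflects was not tested. With the dish number as a replicate block, 3 subunits were higher in G245S than in R273H, 810 genes were higher and 452 lower, and COX7C in G245S was called (-0.0540, adjusted p = 0.0311).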
